A study of Nothobranchius furzeri with 8 samples.

Results

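The genes described here are 6 circadian clock genes of the brain of Nothobranchius furzeri, the turquoise killifish, namely per2, clock, bhlhe40, bhlhe41, cry1b and rorca, out of 23546 genes in the count table. The members were chosen by their differential expression, since each is listed by symbol among the genes that the study called changed between the groups compared here, so that their fold changes are given below as a description and without a test. RNA-seq libraries were made from whole brains of 12-week-old fish, 4 of them sponge-29 and 4 wild-type. The sponge-29 fish are F1 animals of the line kif5a::miR-29sponge. In this line a zebrafish kif5aa promoter drives, in neurons, an eGFP transcript with binding sites that sequester miR-29. The wild-type fish are labelled as the MZM-04/10p control. Per the study, the sponge-29 line was made in the MZM-04/10 strain, which was used for all its killifish experiments. Such a sponge acts where its promoter is active, while the RNA came from all cells of the brain. Libraries are called by the numbers in their labels, 46 to 49 for sponge-29 and 42 to 45 for wild-type. All 6 members passed the filter on low counts, which left 19536 genes for the comparison. The time of day at which brains were taken, and whether it was the same in both groups, is not given in the sources used here.

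The vertebrate circadian clock is a loop of transcription and repression that runs in nearly every cell. The transcription factors CLOCK and BMAL1 bind E-box elements and activate the genes of PER and CRY proteins, which accumulate, enter the nucleus and repress their own activators. Accessory loops are formed by ROR receptors, which activate Bmal1 and other clock genes in mammals, and by the E-box repressors DEC1 and DEC2, the products of bhlhe40 and bhlhe41. In fish, brain and peripheral tissues can be entrained directly by light, and per2 is a light-induced gene in zebrafish. Levels of clock genes therefore change over the day, and a set of brains taken at a single age gives a level and not a rhythm.

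The sponge-29 libraries held 18014090 to 21081878 counts on genes, and the wild-type libraries 21665735 to 24902251. Each member had at least 414 counts in every library (cry1b in wild-type library 45) and at most 5651 (bhlhe40 in sponge-29 library 46), so that counting error was at most 4.91% of a single value, and it covers the counting alone. The level in each fish is expressed in CPM, that is relative to its TMM-adjusted library total, and fold changes as log2 of sponge-29 over wild-type with a standard error (SE). This SE was derived as the absolute log2 fold change over the square root of the F statistic of edgeR's quasi-likelihood test. Wild-type library 43 stood apart from the other wild-type libraries, with a chi-square per degree of freedom of 31.9 to 39.6 against each of them, while those 3 differed from one another by 13.2 to 14.5. Sponge-29 library 49 also stood apart in its group, at 20.8 to 29.8, while sponge-29 libraries 46, 47 and 48 differed from one another by 9.66 to 16. In whole-brain RNA, fewer cells of a type and less RNA per cell cannot be told apart.

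Of the 6 clock genes, clock and per2 were lower in sponge-29, and rorca, cry1b, bhlhe40 and bhlhe41 were higher. All 6 were called at an adjusted p below 0.05, as were 12.0% of all genes tested (6.15% called higher and 5.84% called lower), and this count is what the choice of the members implies. The sponge-29 and wild-type fish did not overlap for 4 of the 6 members, against 21.9% of all genes tested. Over all genes the median log2 fold change was -0.01.

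The gene listed as clock (Nfu_g_1_013913) is named after the activator that pairs with BMAL1, and which of the teleost copies of this gene the identifier stands for was not settled. Its level was 37.7, 30.1, 37.6 and 28.4 CPM in sponge-29 fish 46 to 49, against 49.8, 44.5, 45.8 and 55.2 CPM in wild-type fish 42 to 45. Every sponge-29 fish lay below every wild-type fish. Sponge-29 fish averaged 33.5 ± 4.91 CPM and wild-type fish 48.8 ± 4.80 CPM (SD, n = 4 each), a log2 fold change of -0.55 (SE 0.12), the largest fall of the 6.

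The receptor gene rorca (Nfu_g_1_022739) belongs to the ROR family, whose mammalian members act on the Bmal1 promoter. Its level was 42.4, 34.2, 36.1 and 34.0 CPM in sponge-29 fish 46 to 49, against 22.3, 30.4, 28.2 and 25.3 CPM in wild-type fish 42 to 45. The groups did not overlap, with sponge-29 fish 46 above the 3 others of its group. Sponge-29 fish averaged 36.7 ± 3.92 CPM and wild-type fish 26.6 ± 3.54 CPM (SD, n = 4 each), a log2 fold change of 0.47 (SE 0.11).

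Among the repressors, per2 (Nfu_g_1_023161) encodes a PERIOD protein. The study names a PER2 among predicted miR-29 targets that it lists as up-regulated in sponge-29. Which identifier that entry stands for was not settled here, and the values below are of Nfu_g_1_023161 alone. Its level was 178, 149, 177 and 164 CPM in sponge-29 fish 46 to 49, against 214, 227, 209 and 239.9 CPM in wild-type fish 42 to 45. All sponge-29 fish were below all wild-type fish, and the gap between the groups (from 178 to 209 CPM) was wider than the SD of either. With sponge-29 fish averaging 167 ± 13.7 CPM and wild-type fish 223 ± 13.9 CPM (SD, n = 4 each), the log2 fold change was -0.41 (SE 0.075). Its biological coefficient of variation, 9.36%, was the lowest of the 6 and stood at percentile 5.11 of the genes tested. A call depends on this variation, so that the choice of the members also bears on its percentile.

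Cryptochromes are the partners of PER proteins in repression, and cry1b (Nfu_g_1_008080) is a repressor of this family in zebrafish. Its level was 35.6, 29, 34.3 and 33.2 CPM in sponge-29 fish 46 to 49, against 21.7, 29.1, 17.8 and 17.7 CPM in wild-type fish 42 to 45. The groups touched, since wild-type fish 43 was just above sponge-29 fish 47, whereas the 3 other wild-type fish lay far below. Sponge-29 fish averaged 33.03 ± 2.86 CPM and wild-type fish 21.6 ± 5.34 CPM (SD, n = 4 each), a log2 fold change of 0.62 (SE 0.16). Since only wild-type fish 43 overlapped, leaving it out removes the overlap by construction. The ranges were then 29 to 35.6 CPM in the sponge-29 brains and 17.7 to 21.7 CPM in the wild-type ones. The log2 fold change without wild-type library 43 was 0.79 (SE 0.11), the upper end of 0.53 to 0.79 over the 8 fits without a single library. Only in this 1 of the 8 fits was cry1b called.

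The paralogues bhlhe40 and bhlhe41 encode bHLH repressors that compete with CLOCK and BMAL1 at E-boxes and are themselves induced by many stimuli in mammals. The level of bhlhe40 (Nfu_g_1_020134) was 274, 224, 253 and 250.2 CPM in sponge-29 fish 46 to 49, against 180.2, 227.5, 185 and 178 CPM in wild-type fish 42 to 45. Wild-type fish 43 was the only wild-type fish within the sponge-29 range. With sponge-29 fish averaging 250.3 ± 20.6 CPM and wild-type fish 193 ± 23.5 CPM (SD, n = 4 each), the log2 fold change was 0.38 (SE 0.095). Without wild-type library 43 it was 0.47 (SE 0.076), the upper end of 0.33 to 0.47 over the 8 fits without a single library. The overlap then goes by construction, and only in this 1 of the 8 fits was bhlhe40 called.

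The level of bhlhe41 (Nfu_g_1_008439) was 46.1, 43.7, 53.1 and 61.9 CPM in sponge-29 fish 46 to 49, against 37.0, 26.6, 34.2 and 32.3 CPM in wild-type fish 42 to 45. The groups did not overlap, and here wild-type fish 43 had the lowest value of all 8, opposite to its place for bhlhe40. Sponge-29 fish averaged 51.2 ± 8.17 CPM and wild-type fish 32.5 ± 4.40 CPM (SD, n = 4 each), a log2 fold change of 0.66 (SE 0.13), the largest rise of the 6. Without wild-type library 43 it was 0.57 (SE 0.13).

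**Figure D1:**
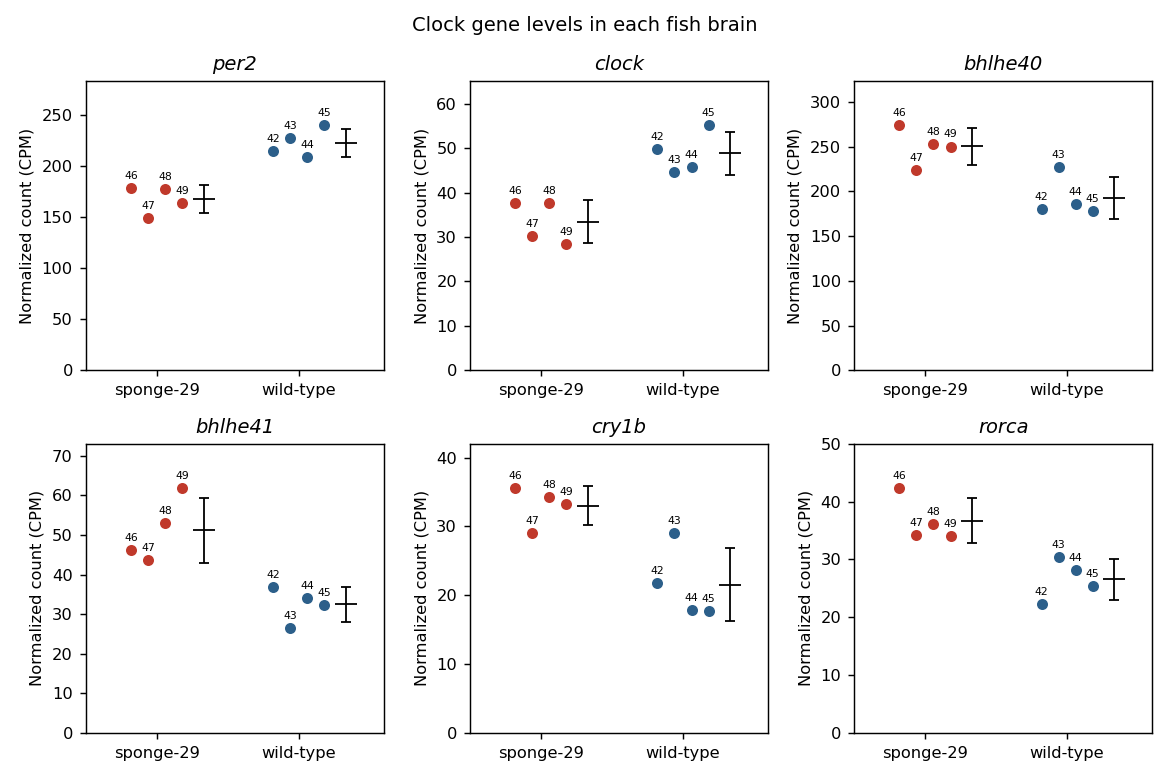
Normalized count (CPM, linear axis from 0) of each clock gene in every fish, with sponge-29 in red and wild-type in blue. Points are single fish labelled by library, and the bar beside each group is the mean ± SD (n = 4). For clock and per2 all sponge-29 fish lie below wild-type, for bhlhe41 and rorca all lie above, and for bhlhe40 and cry1b only wild-type fish 43 reaches the sponge-29 range.

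Leaving out single libraries changed how many of the 6 passed the threshold, although every fold change kept its sign. Without wild-type library 45, 0 of the 6 were called in edgeR's quasi-likelihood fit, and all 6 were called without wild-type library 43, where the log2 fold change was -0.59 (SE 0.12) for clock, -0.40 (SE 0.083) for per2 and 0.54 (SE 0.11) for rorca. With any of the 6 other libraries left out, 2 or 3 were called. In these 8 fits per2 and bhlhe41 were each called in 7 and clock in 4, but bhlhe40, cry1b and rorca in 1 each. Over the 8 fits the log2 fold change lay between -0.61 and -0.47 for clock and between -0.45 and -0.36 for per2. It lay between 0.38 and 0.54 for rorca, 0.53 and 0.79 for cry1b, 0.33 and 0.47 for bhlhe40, and 0.55 and 0.72 for bhlhe41.

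In these libraries long genes tended to be lower in sponge-29. The median log2 fold change was 0.09 in the shortest of 5 length classes (84 to 1083 bases) and -0.13 in the longest (5268 to 88546 bases). The members span 1272 bases (bhlhe41) to 6745 bases (per2), with clock at 2785, cry1b at 3537, bhlhe40 at 3136 and rorca at 1425. When each library's trend of counts with gene length was removed, 7.83% of all genes were called and all 6 members still were. The log2 fold change of per2, the longest of them, was then -0.32 (SE 0.066) and that of clock -0.54 (SE 0.13). For bhlhe41 it was 0.62 (SE 0.14), for cry1b 0.64 (SE 0.14), for rorca 0.44 (SE 0.11) and for bhlhe40 0.39 (SE 0.084). Each of the 6 kept its direction. Of all calls, 51.3% were higher in sponge-29, and 63.6% with the trend removed.

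The levels of the 6 genes were compared with one another as RPKM, which the authors scaled to gene length, and not by the group difference that chose them, although the size and spread of each pooled difference also carry the fold changes. Over all 8 fish the order of mean log2(RPKM + 0.1) was bhlhe40, bhlhe41, per2, rorca, clock and cry1b. The tests of this order cover variation between fish alone. An error in the length of a gene model or in mapping would be shared by all 8 fish and is not covered. The level of bhlhe40, higher than that of 95.2% of genes tested, exceeded that of bhlhe41 by 1.13 on the log2 scale (SD 0.32) in 8 of 8 fish (exact sign-flip permutation test within fish, two-sided, p = 0.00781, the smallest this test allows, adjusted p = 0.0195 over 5 neighbouring pairs). At the lower end, clock exceeded cry1b by 0.94 (SD 0.70) in 8 of 8 fish (same exact test, p = 0.00781, adjusted p = 0.0195). The size of this difference was not the same in the groups, at 0.35 (SD 0.16) in sponge-29 and 1.53 (SD 0.43) in wild-type, whereas that of bhlhe40 over bhlhe41 was 0.99 (SD 0.23) in sponge-29 and 1.27 (SD 0.36) in wild-type.

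The genes in the middle of this order were not separated by this test over all 8 fish. In each of these pairs the fold changes are opposite, which widens the pooled spread. The test therefore does not show whether they are separated within a group. The level of rorca was above that of clock by 0.59 on the log2 scale (SD 0.59) in 6 of 8 fish (same exact test, p = 0.0391, adjusted p = 0.0651). That of per2 was above rorca by 0.39 (SD 0.50) in 6 of 8 fish (same exact test, p = 0.102, adjusted p = 0.127). Between bhlhe41 and per2 the mean difference was 0.16 (SD 0.61), positive in 4 of 8 fish (same exact test, p = 0.508, adjusted p = 0.508).

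Within the groups this middle order was not the same. In sponge-29, bhlhe41 had 34.2 to 47.6 RPKM and per2 22 to 26.4 RPKM, so that bhlhe41 ranked second. In wild-type, bhlhe41 had 21.2 to 29.6 RPKM and per2 31.2 to 35.6 RPKM, so that per2 ranked second. This exchange restates the fold changes given above and is no separate result. In sponge-29 clock, with 9.97 to 13.5 RPKM, lay below rorca (23.4 to 29.1 RPKM) without overlap, whereas in wild-type clock, with 16.2 to 19.8 RPKM, lay within the range of rorca (15.9 to 21.7 RPKM). The lowest of the 6 in both groups was cry1b, with 8.15 to 9.84 RPKM in sponge-29 and 4.99 to 8.35 RPKM in wild-type.

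**Figure D2:**
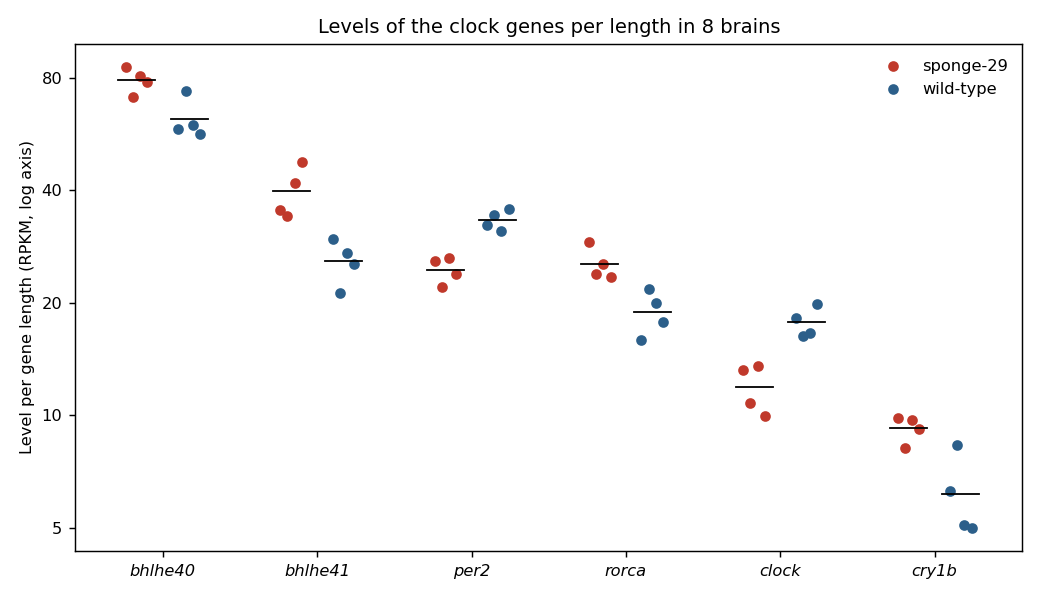
Level per gene length (RPKM, log axis) of the clock genes in each of 8 fish, ordered by their mean over all fish, with sponge-29 in red left of wild-type in blue. Points are single fish and black lines are group means (n = 4). In every fish bhlhe40 is the highest and cry1b the lowest, and per2 and bhlhe41 exchange their places between the groups.

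Fish of the same group were then compared by their deviation from the group mean of log2 CPM. The choice of the members did not use which fish deviated or which genes deviated together. It did depend on the size of the deviations, since a call takes the spread within groups into account. Sponge-29 fish 46 had the highest level of its group for 5 of the 6 genes (per2, clock, bhlhe40, cry1b and rorca), and fish 47 the lowest for 4 (per2, bhlhe40, bhlhe41 and cry1b). Among wild-type fish, 43 was the highest for bhlhe40, cry1b and rorca and the lowest for clock and bhlhe41. Its deviation reached 0.46 for cry1b and -0.28 for bhlhe41. Wild-type fish 45 was the highest for per2 and clock and the lowest for bhlhe40 and cry1b.

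The closest pair was bhlhe40 and cry1b, which deviated together over 8 fish with Pearson's r = 0.88 and Spearman's rho = 0.83 (exact permutation within groups, two-sided, p = 0.0156 for r and 0.0122 for rho). After Benjamini-Hochberg adjustment over the 15 pairs of members the same exact test gave 0.234 for r and 0.182 for rho, and r was 0.59 without the 2 fish farthest from the median, 43 and 46. For bhlhe40 and rorca r was 0.78 and rho 0.67 (same exact test, p = 0.0625 and 0.109, adjusted p = 0.443 and 0.547), and r was 0.30 without the same 2 fish. For per2 and clock r was 0.73 and rho 0.71 (same exact test, p = 0.0885 and 0.0781, adjusted p = 0.443 and 0.547), and 0.64 without fish 45 and 47. The pair bhlhe41 and rorca had the most negative relation, with r = -0.61 and rho = -0.60 (same exact test, p = 0.146 and 0.174, adjusted p = 0.547 and 0.651), and r was -0.42 without fish 43 and 49. None of the 15 pairs passed an adjusted p of 0.05 and 1 had an unadjusted p for r below it, where the smallest p that this exact test allows is 0.00174, which is 0.026 after adjustment for a single pair. For clock and bhlhe40 the r over all 8 fish was -0.01, with 0.65 among the 4 sponge-29 fish and -0.72 among the 4 wild-type fish, and it was 0.47 without wild-type library 43.

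**Figure D3:**
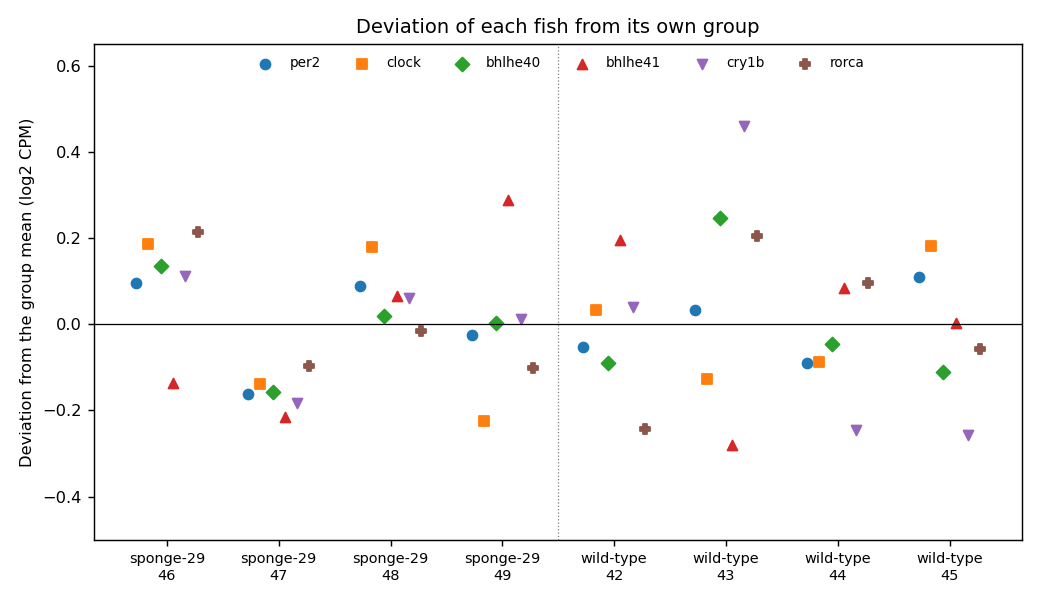
Deviation of each fish from the mean of its own group (log2 CPM) for each of the 6 clock genes, with sponge-29 fish left of the dotted line and wild-type fish right of it. Each symbol is 1 gene in 1 fish. In wild-type fish 43, cry1b, bhlhe40 and rorca lie above 0 and bhlhe41 and clock below it.

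Genes with a symbol were ranked by how closely their deviations followed those of each member over the 8 fish, as a description. The points share libraries and depth, and for 9.08% (rorca) to 16.4% (clock) of all genes the absolute r with a member was above 0.7. An r above 0.9 was reached by 0.276% (bhlhe40 and rorca) to 1.07% (clock) of all genes. For clock the closest were kat6a, a histone acetyltransferase (r = 0.98), arid1aa, a subunit of the SWI/SNF remodelling complex (r = 0.98), and mll5 (r = 0.97). These 3 values were 0.97, 0.96 and 0.98 with the gene-length trend removed. For per2 they were DMXL2 (1 of 2) (r = 0.96), DLGAP2 (3 of 3) (r = 0.96) and dlgap1a (r = 0.95), of which the DLGAP family encodes scaffold proteins of the postsynaptic density. With the trend removed r was 0.92 for DMXL2 (1 of 2) and 0.93 for dlgap1a, but -0.23 for DLGAP2 (3 of 3), a gene model of 23843 bases.

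For bhlhe40 the closest were arhgef11 (r = 0.94), kdm5ba (r = 0.93) and pcmtd1 (r = 0.93), and for cry1b lzts2a (r = 0.96), cables1 (r = 0.93) and zgc:158257 (r = 0.91). For bhlhe41 they were nrg1, which encodes the growth factor neuregulin (r = 0.91), icn (r = 0.91) and tmpob (r = 0.90). For rorca they were DNAJB2, a co-chaperone (r = 0.93), zgc:173710 (r = 0.92) and C17H14orf43 (1 of 2) (r = 0.86). With the gene-length trend removed r was 0.72 for kdm5ba with bhlhe40. For the other genes named here for bhlhe40, cry1b, bhlhe41 and rorca it was then between 0.825 (C17H14orf43 (1 of 2)) and 0.92 (zgc:173710). No gene was among the 3 closest of more than 1 member.

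Further clock-linked genes were followed through 33 identifiers on 5 lists. The study lists 32 of them, like the members, as changed. The symbol of the other, C19H1orf51 (1 of 2), comes from its list of genes regulated in both aging and sponge-29. The calls of the 33 are therefore a description as well. Symbols were at hand for 1418 genes, nearly all of them taken from such lists, and of these 610 were called higher and 641 lower. A clock gene without a symbol could not enter the 5 lists, which hold no gene for BMAL1 and no further per gene. They are therefore no survey of the clock. Of the 33 identifiers, 13 were called higher, 18 lower and 2 were not called (edgeR's quasi-likelihood test, Benjamini-Hochberg over all genes, where 12.0% were called). Without single libraries the number called was 13 (sponge-29 library 47), 20 (sponge-29 library 49), 20 (wild-type library 42), 17 (wild-type library 44) and 12 (wild-type library 45), and 24 to 30 for the others. The median log2 fold change of the 33 was -0.36, that of all genes with a symbol was also -0.36, and that of the 33 was -0.19 after removal of the length trend, with 24 called.

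The relatives of the repressors comprised 3 identifiers, of which 1 was called higher, 1 lower and 1 was not called. The cryptochrome gene cry2a was called lower, with 94.6 to 121 CPM in the sponge-29 brains and 130 to 149 CPM in the wild-type ones and a log2 fold change of -0.36 (SE 0.098). After removal of the length trend its log2 fold change was -0.38 (SE 0.11) and not called, and cry2a was called in 1 of the 8 fits without a single library. The gene cry-dash, of the cryptochrome-DASH subfamily related to photolyases, was called higher, with 25.9 to 32.5 CPM in the sponge-29 brains and 15.7 to 25.2 CPM in the wild-type ones and a log2 fold change of 0.53 (SE 0.14). Like cry2a, cry-dash was called in 1 of the 8 fits without a single library. The model C19H1orf51 (1 of 2), named after a human gene also known as CIART, whose mouse product represses CLOCK and BMAL1, was not called, with 19.3 to 37.1 CPM in the sponge-29 brains and 10.3 to 25.1 CPM in the wild-type ones, which overlapped.

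Enzymes that modify clock proteins or mark them for degradation comprised 10 identifiers, of which 2 were called higher, 7 lower and 1 was not called, with a median log2 fold change of -0.43. The largest change was a rise of mgea5, the O-GlcNAcase gene, to 445 ± 75.8 CPM in the sponge-29 brains, against 275 ± 47.04 CPM in the wild-type ones (log2 fold change 0.69, SE 0.15). The kinase gene dyrk1ab was called lower, with a log2 fold change of -0.53 (SE 0.059). The log2 fold change was -0.51 (SE 0.065) for the ubiquitin ligase subunit gene fbxw7 and -0.51 (SE 0.11) for the deubiquitinase gene usp2a, both called lower. With the gene-length trend removed the median of these 10 was -0.32, and 8 were called.

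Coactivators and chromatin partners comprised 10 identifiers, of which 9 were called lower and 1, the histone demethylase gene kdm5ba, was called higher. Of all genes tested, 5.84% were called lower, and the study lists all 10 of these identifiers as changed. Their median log2 fold change was -0.49, and their median length of 8088 bases was above the 2654 bases of all genes tested. The methyltransferase gene ezh2 had 20.5 ± 2.96 CPM in the sponge-29 brains and 37.1 ± 5.23 CPM in the wild-type ones, a log2 fold change of -0.86 (SE 0.13). The acetyltransferase genes ep300b and crebbpa, whose mammalian products are coactivators of CLOCK and BMAL1, changed by -0.65 (SE 0.090) and -0.53 (SE 0.11). The copy of ncoa3 under Nfu_g_1_001446 changed by -0.61 (SE 0.12). With the gene-length trend removed the median was -0.33, and 7 were called.

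Genes of the light and cAMP input to the clock comprised 7 identifiers, and all were called higher, with a median log2 fold change of 0.66. Of all genes tested, 6.15% were called higher. The study lists all 7 as changed between these groups, so that this count and its direction are a description. The phosphatase gene dusp1, an immediate early gene, had 34.9 ± 6.11 CPM in the sponge-29 brains and 16.6 ± 3.03 CPM in the wild-type ones, a log2 fold change of 1.07 (SE 0.16). For fos, an immediate early gene induced by light in the mammalian suprachiasmatic nucleus, the values were 33.5 ± 1.93 CPM in the sponge-29 brains and 19.3 ± 3.36 CPM in the wild-type ones, a log2 fold change of 0.80 (SE 0.12). The kinase gene SIK1, which limits light resetting in mice, had 63.9 ± 10.6 CPM in the sponge-29 brains and 37.6 ± 5.71 CPM in the wild-type ones, a log2 fold change of 0.76 (SE 0.14). The PACAP gene adcyap1b, whose peptide carries light signals to the mammalian clock, had 936 ± 48.1 CPM in the sponge-29 brains and 593 ± 77.3 CPM in the wild-type ones, a log2 fold change of 0.66 (SE 0.10). With the gene-length trend removed the median was 0.68, and 6 were called, all but creb1a. In the 8 fits without a single library creb1a was called in 2.

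Of 3 output or pacemaker genes, rgs16 (log2 fold change 0.60, SE 0.14) and pparab (0.35, SE 0.090) were called higher and ZFHX3 (1 of 2) (-0.51, SE 0.13) lower. The last is a model of 16954 bases, and its log2 fold change was -0.26 (SE 0.11) and not called with the gene-length trend removed. In the 8 fits without a single library rgs16 was called in 3, ZFHX3 (1 of 2) in 2 and pparab in 1. Of all genes tested, 12.0% were called.

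**Figure D4:**
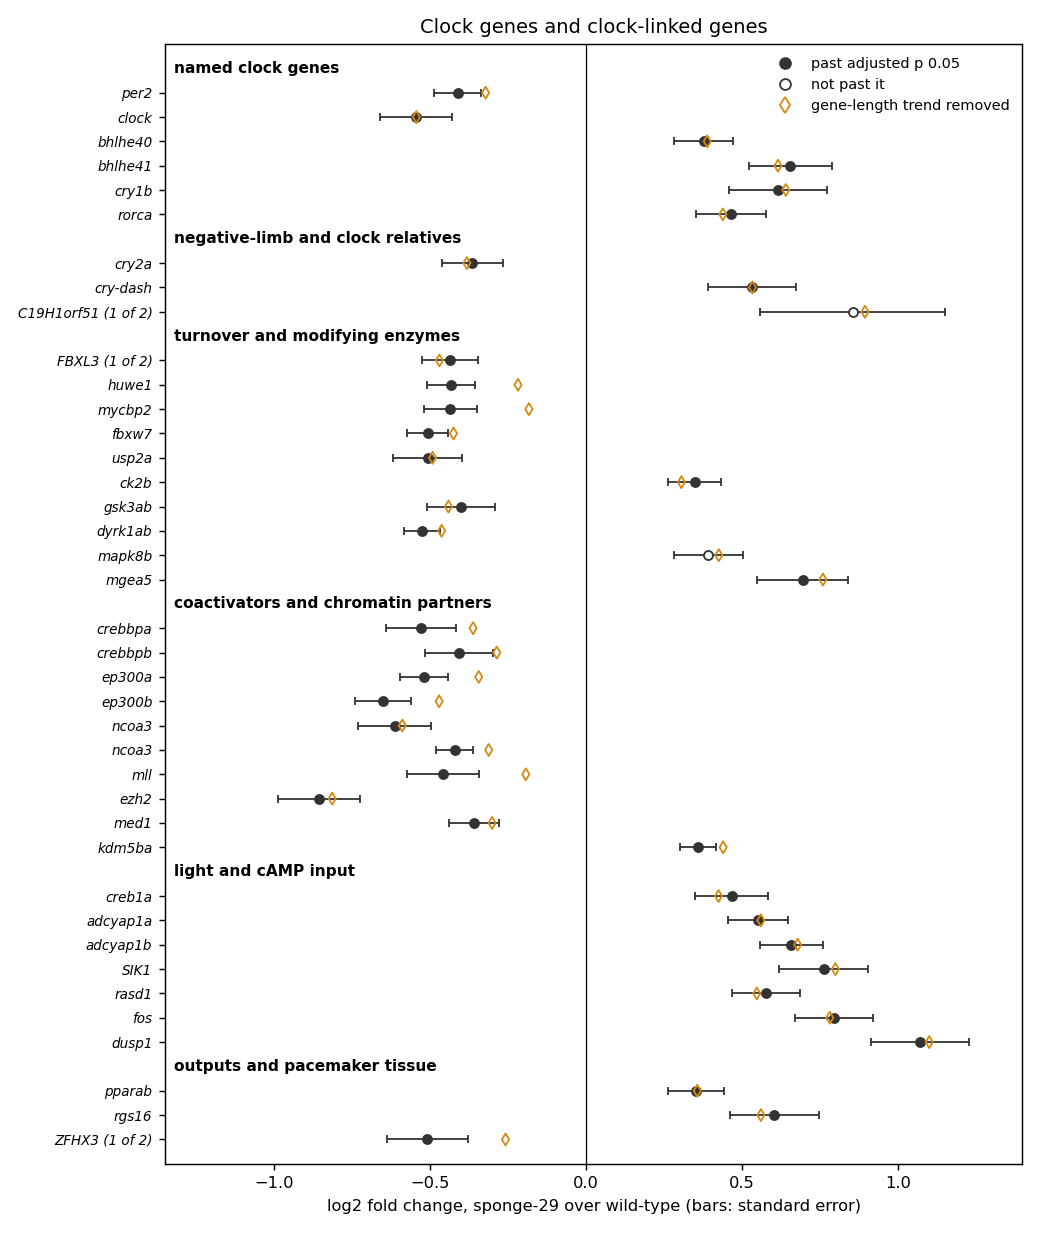
Log2 fold change of sponge-29 over wild-type for the 6 clock genes and the 33 clock-linked identifiers, grouped by role. Filled circles are estimates past an adjusted p of 0.05 and open circles those that are not, with standard errors as bars, and diamonds are estimates with the gene-length trend removed. The 7 light and cAMP input genes all lie right of 0, and 9 of the 10 coactivators and chromatin partners lie left of it. Of the 33 identifiers, 32 are listed by the study as changed between these groups. The other comes from its list of genes regulated in both aging and sponge-29.

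Markers of brain cell types, used to check the labelled tissue, were present in every library, with at least 89 counts for each of 25 genes. Of these, 17 were called higher, 2 lower and 6 were not called, where 12.0% of all genes tested were called. The study lists 21 of the 25 as changed between these groups. The symbols of the others come from its list of genes regulated in both aging and sponge-29. These counts are therefore a description. In the 8 fits without a single library MAP1B, KCNJ10 (1 of 2), SOX8 (2 of 2) and GPR37 (2 of 2) were each called in 1. With the gene-length trend removed 16 of the 25 were called, and KCNJ10 (1 of 2) and SOX8 (2 of 2) were not. The summed level of 7 neuronal markers was 1756 to 1961 CPM in the sponge-29 brains and 1156 to 1510 CPM in the wild-type ones, and 6 of the 7 were called higher. For the 3 genes listed under astroglia and ependyma (sox9a, KCNJ10 (1 of 2) and epd) the sum was 5896 to 8245 CPM in the sponge-29 brains. It was 1897 to 5018 CPM in the wild-type ones, and sox9a and KCNJ10 (1 of 2) were called higher. Most of this sum was epd, which was itself not called, with 5455 to 7779 CPM in the sponge-29 brains and 1681 to 4681 CPM in the wild-type ones, the lowest in wild-type fish 43. The sum therefore follows epd and does not stand for astroglial or ependymal cells. The 3 oligodendrocyte markers summed to 128 to 157 CPM in the sponge-29 brains and 97.1 to 115 CPM in the wild-type ones, and all 3 were called higher. The 7 genes listed under neuropeptides summed to 251 to 308 CPM in the sponge-29 brains and 132 to 201 CPM in the wild-type ones. Of these 4 were called higher, among them crhbp, which encodes a peptide-binding protein and not a neuropeptide. The ranges of the groups overlapped for the 2 genes listed under microglia and macrophages (26.4 to 37.6 CPM in the sponge-29 brains, 22.5 to 103 CPM in the wild-type ones). These went opposite ways, with mrc1a called higher (log2 fold change 0.79, SE 0.15) and ITGAM lower but not called (-1.84, SE 0.77). This overlap came from ITGAM in wild-type fish 43, at 94.6 CPM, and without that library the wild-type sums were 22.5 to 26.3 CPM, just below those of sponge-29. They also overlapped for 3 retina and pigment cell markers (145 to 177 CPM in the sponge-29 brains, 149 to 178 CPM in the wild-type ones, 1 called higher and 2 lower). Thus the summed levels of 4 of the 6 marker lists did not overlap between the groups, or of 5 without wild-type library 43, and their part in the values of the clock genes was not tested. Of all genes tested, 21.9% did not overlap, but this share is of single genes over all 8 libraries and is no baseline for sums or for fewer libraries. Since most of the markers are listed as changed between these groups, the non-overlap of their sums is no measure of cell composition.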

How the data were processed

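Total RNA from whole brains was sequenced after TruSeq library preparation (kit v2). The authors aligned reads with TopHat2 2.0.6 and counted them with featureCounts 1.4.3-p1, after bcl2fastq 1.8.4 per the labels. Raw counts per gene and RPKM were both deposited by the authors. The strand and multi-mapping settings are not given in the sources used here, so that levels of close paralogues and overlapping genes are uncertain.

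Counts of 4 sponge-29 and 4 wild-type libraries were analysed in R 4.3.3 with edgeR 4.0.16 (filterByExpr with a minimum count of 10, TMM, quasi-likelihood test, Benjamini-Hochberg adjustment, threshold 0.05), after the fits were tested on simulated data. RPKM values entered as log2(RPKM + 0.1). Per-fish CPM were computed from the deposited counts with TMM library sizes, and deviations from log2 CPM with a prior count of 2. Libraries are separate fish per the study. Alternatives were DESeq2 1.42.0, limma 3.58.1 on voom weights and on RPKM, other size factors, no filter, a stricter threshold, each library left out in turn, and an offset for gene length (a spline with 4 degrees of freedom in each library).

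The members and lists were chosen with earlier results of these data known. Named were the 6 members, up to 4 genes of each list with the largest absolute fold change, and the 3 genes with a symbol closest to each member. Where a gene outside this rule is named in a list as the single exception, it was chosen after its values were seen. Symbols came from the study's additional tables alone, for 1418 identifiers, and their fold change and p-value columns were not used. None of the identifiers matched the RefSeq table (assembly NfurGRZ-RIMD1), which carries 5 of the 6 member symbols and was not used for names. Coordinates and sequences were not used here.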

Additional observations from a re-analysis of the deposited data

Results flagged for a closer look

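The level of bhlhe40 in wild-type was set apart by a single fish. Wild-type fish 43 had 227.5 CPM, and its gap to the nearest wild-type fish was 0.841 of the range of the group, above Dixon's 95% critical value for 4 samples. This was the only such value among the 12 combinations of 6 clock genes and 2 groups, and chance gives about 1 in 20 groups.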

How the results depend on the processing

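The log2 fold changes of the 6 clock genes kept their sign in all 17 alternatives each. Counts of calls depended more on the setting. DESeq2 called 3791 genes and the fit with the gene-length trend removed 1529, against 2341 in the edgeR quasi-likelihood test, and both called all 6 clock genes. In the test of the fits given above, DESeq2 made 65 false calls, the gene-length fit 12 and the quasi-likelihood test 11. At a threshold of 0.01 the edgeR test called 16 genes and 0 of the clock genes. Without a filter on low counts 4 of the 6 were called, bhlhe40 and cry1b being lost. With single libraries left out, between 427 and 2125 genes, between 0 and 6 clock genes and between 12 and 30 of the 33 clock-linked identifiers were called. Genes called numbered 1480, 441 and 990 without sponge-29 libraries 46, 47 and 49, and 1153, 886 and 427 without wild-type libraries 42, 44 and 45. The clock-linked calls numbered 13 and 20 without sponge-29 libraries 47 and 49, and 20, 17 and 12 without wild-type libraries 42, 44 and 45. Clock genes called numbered 3, 2, 3 and 2 without sponge-29 libraries 46, 47, 48 and 49, and 2, 3 and 0 without wild-type libraries 42, 44 and 45. The cause was not tested. The order of levels and its 2 separated pairs were the same in all 10 alternatives. In no alternative did a pair of members deviate together at an adjusted p below 0.05, but with a library left out the smallest adjusted p for a single pair is 0.104, so that 8 of these 10 alternatives say nothing about stability. No paired analysis was possible because the labels number the libraries singly, from 42 to 49, and numbers counted within a group in that order pair no fish.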
